A study of Mus musculus with 12 samples.

Results

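Poly(A) sites listed with a hexamer made only of A were examined in a catalogue of RNA 3′ ends from mouse embryonic stem cells. The authors' table gives each site as a cluster of mapped 3′ ends, with its strand, the hexamer found upstream of it and the distance of that hexamer in nt. The members were all sites outside the mitochondrial genome whose listed hexamer was AAAAAA, at any distance, and they numbered 1511 of 145099 sites. They were divided by distance into 629 sites at 6 to 14 nt, 492 sites at 15 to 30 nt and 390 sites at 31 to 100 nt. The hexamer at 15 to 30 nt stands where a poly(A) signal usually lies, and the class at 6 to 14 nt holds candidates for priming inside A stretches.

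The cells were V6.5 mouse embryonic stem cells, in clones that carry a conditional Exosc3 knockout (Exosc3 CKO) and keep Exosc3, an RNA exosome subunit, while doxycycline is present. The study made 12 libraries by 2P-seq, a method that sequences RNA from its poly(A) tail, in 6 groups of 2. They were cells without doxycycline for 3 days (dox−, Exosc3 lost) and cells kept in 0.1 μg/ml doxycycline (dox+, Exosc3 present). Further dox− cells, and dox+ cells beside them, were nucleofected with 15 μM of a U1 AMO, an antisense oligonucleotide against the U1 small nuclear RNA, or with 15 μM of a scrambled (Scr) AMO, and were taken at 2 days. All 6 groups carried the conditional allele, and which libraries entered the clusters is not given in the sources used here. None of the table's 7 columns holds a value of a single library. Depth is therefore unknown and no effect of doxycycline or of an AMO could be examined. The results describe the pooled sites on the mm9 build.

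A poly(A) signal is a short A-rich hexamer that the cleavage and polyadenylation complex reads through its subunits CPSF30 and WDR33, and cleavage follows a short way downstream of it. AATAAA is the canonical signal and ATTAAA its most frequent variant, while other A-rich stretches can serve as weaker signals. Oligo-dT can anneal to A runs inside a transcript as well as to its tail, and an end made in that way has templated A beside it. The deposited table does not tell such ends from cleaved ones, and which of the members are of either kind was not tested.

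The all-A hexamer was listed for 1.04% of all sites (Wilson 95% interval 0.990 to 1.10%) and for 1.17% of the 129401 sites with any hexamer. It was the 11th most frequent of 36 hexamers. Plus and minus strand held 774 and 737 of its sites. Its share of the sites with a hexamer differed between the distance classes. It made up 5.83% of those at 6 to 14 nt (interval 5.41 to 6.29%), 0.526% of those at 15 to 30 nt (interval 0.482 to 0.575%) and 1.55% of those at 31 to 100 nt (interval 1.41 to 1.71%). Intervals here and below cover counting error only. A 1-base change separates the all-A hexamer from 13 other listed hexamers with 5 A besides AATAAA, and these 10946 sites, called the other 5-A hexamers, were the nearest comparison.

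All-A sites were gathered close to the end, with a median hexamer distance of 18 nt and quartiles of 9 and 31 nt. The median was 28 nt for the other 5-A hexamers and 21 nt for AATAAA. The counts by single distance did not run smoothly. There were 46 all-A sites at 6 nt, 144 at 7 nt, 170 at 8 nt and 30 at 9 nt, so 7 and 8 nt together held 314 sites or 20.8% of all members. At 10 nt there was no all-A site, although 9 and 11 nt averaged 57.5 sites. With 3 sites taken as the upper limit of a count of 0, in place of a Wilson interval, the share at 10 nt could reach 0.199%. The count was 85 at 11 nt, and then 56, 53, 45 and 44 at 12, 13, 14 and 15 nt.

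The empty distance at 10 nt was not shared by every A-rich hexamer. AAGAAA had its most frequent distance there, with 188 sites, and AAAAAC had 23 sites. TAAAAA, the all-A hexamer with a T in place of its first base, had 19 sites at 10 nt and its own empty distance at 12 nt, between 10 sites at 11 nt and 6 at 13 nt. AAAAAG and AAAAAT, which differ from the all-A hexamer at the last base, had 1 and 3 sites at 10 nt. Whether the authors' search or any filter bears on the empty distances of the all-A hexamer and of TAAAAA was not tested.

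Beyond 15 nt, all-A sites formed a low shoulder and a long tail. A local high of 57 sites stood at 19 nt, where canonical signals are also frequent. The class of 15 to 30 nt held 30.8 ± 12.99 all-A sites per nt (SD over 16 distances), against 4.70 ± 2.22 per nt at 61 to 100 nt (SD over 40 distances), a ratio of 6.54. The all-A hexamer thus had more sites at 6 to 14 nt (629) than at 15 to 30 nt (492), whereas the other 5-A hexamers had 1842 and 3985 in those classes.

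**Figure D1:**
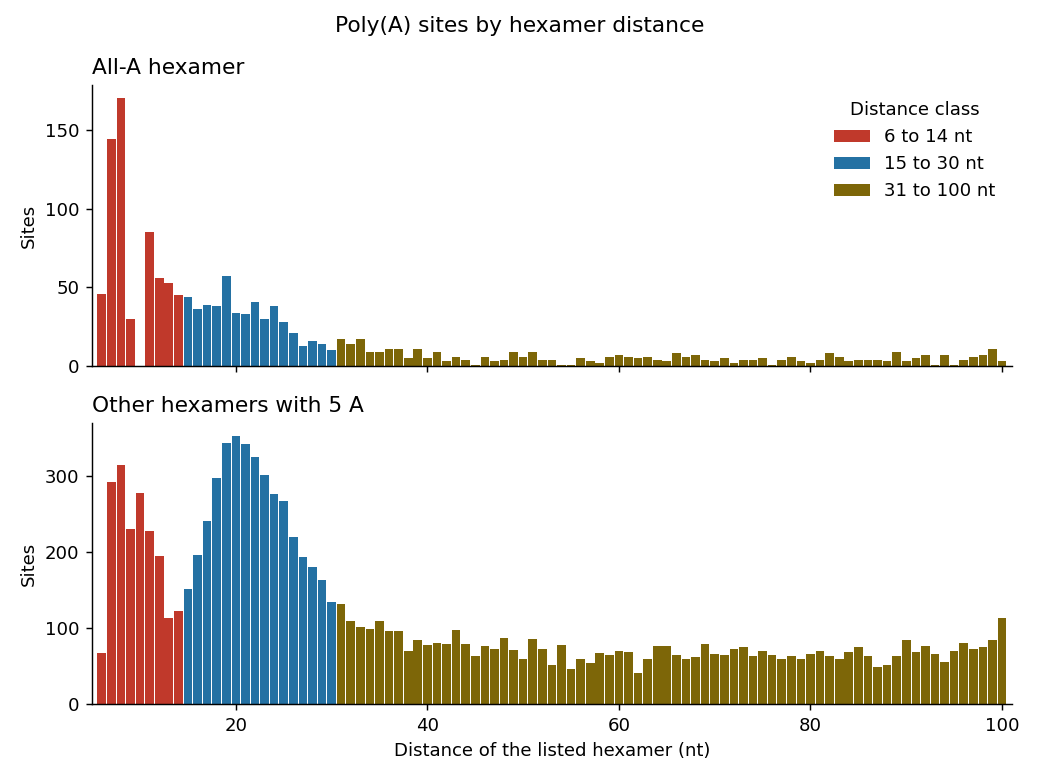
Number of sites at each distance of the listed hexamer in nt, for the all-A hexamer (top) and for the other hexamers with 5 A (bottom), coloured by distance class. All-A sites peak at 8 nt with 170 sites and have none at 10 nt, and the other 5-A hexamers peak at 20 nt with 352 sites.

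The share of sites at 6 to 14 nt was 41.6% for the all-A hexamer (interval 39.2 to 44.1%). Over the 19 autosomes it averaged 41.2% ± 6.86, against 16.7% ± 2.12 for the other 5-A hexamers (SD over autosomes). The difference was 24.5 percentage points ± 6.64 (SD), with the all-A share higher on 19 of 19 autosomes (adjusted p = 2.29e-05, 2-sided sign-flip permutation test over autosomes). Against all other hexamers, which averaged 7.90% ± 0.348, the difference was 33.3 percentage points ± 6.83 and again positive on 19 of 19 (adjusted p = 2.29e-05, same permutation test). Autosomes stand here for parts of the genome and not for cultures, so p reflects the evenness of a difference along the genome.

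The all-A hexamer was not the most end-bound of the A-rich hexamers. AAAAAC, with C at the last base, had 62.5% of its 315 sites at 6 to 14 nt (interval 57.1 to 67.7%), above the all-A interval. AAAAAT had 24.7% of 360 sites there, AAGAAA 20.9% of 4514 sites and AAAAAG 17.4% of 241 sites. AAAACA had 16.6% of 812 sites in the class, and 7 of the other 5-A hexamers lay between 7.07% and 10.8%. ATAAAA had 0 of only 14 sites there, and each of the 14 was listed with a distance of 100 nt. No site had a longer distance. Whether the way a hexamer was picked for a site bears on the distances compared between hexamers was not tested. For AATAAA the share at 6 to 14 nt was 9.48% and for ATTAAA 3.36%.

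**Figure D2:**
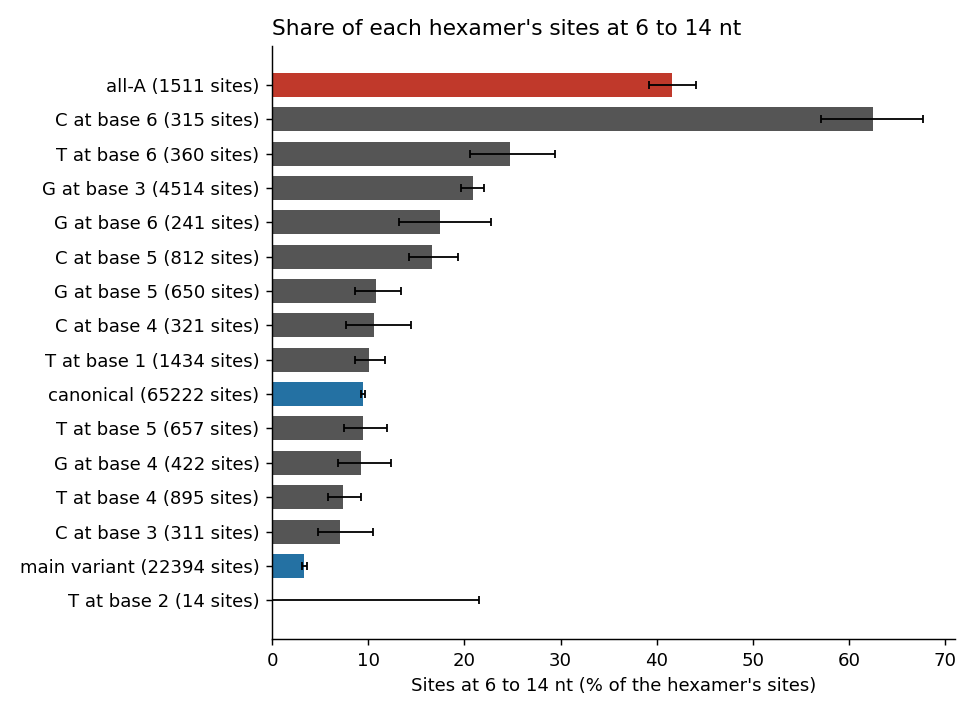
Share of each hexamer's sites that have it at 6 to 14 nt, in percent, with Wilson 95% intervals as bars, for the all-A hexamer, the 13 other hexamers with 5 A (named by the base that is not A and its position) and the 2 main poly(A) signals. The all-A hexamer stands at 41.6%, below the hexamer with C at base 6 and above all the others drawn.

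The share at 15 to 30 nt was 32.6% for the all-A hexamer (interval 30.3 to 35.0%). Over autosomes it averaged 32.25% ± 6.21, against 36.1% ± 2.68 for the other 5-A hexamers, a difference of -3.85 percentage points ± 5.42 that was negative for 14 of 19 (adjusted p = 0.00788, permutation test). With the class bounded at 25 nt instead of 30 nt, the difference was -0.82 percentage points (adjusted p = 0.512, permutation test). AATAAA had 79.7% of its sites in the class of 15 to 30 nt and ATTAAA 83.3%.

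Cluster width, the span of 3′ ends joined into a site, was narrow where the all-A hexamer was close. The median width of all-A clusters was 2 nt at 6 to 14 nt, 7 nt at 15 to 30 nt and 11 nt at 31 to 100 nt. The upper quartiles were 4, 19 and 23 nt in that order. AATAAA clusters had medians of 9, 10 and 14 nt in the same classes. For the other 5-A hexamers the medians were 3, 9 and 10 nt.

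Clusters 1 nt wide made up 47.7% of the all-A sites at 6 to 14 nt (300 of 629), 24.2% at 15 to 30 nt (119 of 492) and 13.8% at 31 to 100 nt (54 of 390). Over autosomes, the class at 6 to 14 nt averaged 47.6% ± 7.75 and the class at 15 to 30 nt 27.1% ± 13.3. The difference of 20.6 percentage points ± 15.6 held its sign in 17 of 19 autosomes (adjusted p = 0.000189, permutation test). In mean log2 width the classes averaged 1.14 ± 0.30 and 2.42 ± 0.65, and the difference of -1.29 ± 0.64 was found in 19 of 19 autosomes (adjusted p = 2.29e-05, permutation test). A higher share 1 nt wide at 6 to 14 nt than at 15 to 30 nt was not particular to the all-A hexamer. For the other 5-A hexamers the pooled shares in those classes were 34.85% and 16.6%. For AATAAA they were 10.95% and 9.70%.

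All-A sites at 31 to 100 nt were wider than those at 15 to 30 nt. Mean log2 width was 3.23 ± 0.42 in the distant class and 2.42 ± 0.65 in the class of 15 to 30 nt, a difference of 0.81 ± 0.67 seen in 17 of 19 (adjusted p = 4.00e-05, permutation test). The share of clusters 1 nt wide was 14.9% ± 10.4 at 31 to 100 nt and 27.1% ± 13.3 at 15 to 30 nt, lower by 12.2 percentage points ± 14.7 in the mean and lower on 15 of 19 (adjusted p = 0.00232, permutation test). Some autosomes held few sites of a class, down to 11 at 15 to 30 nt (chromosome 16) and 8 at 31 to 100 nt (chromosome 14). The SD over autosomes therefore includes counting error. Single distances showed where the narrow clusters stood. At 6 nt 30.4% of the all-A clusters were 1 nt wide, at 7 nt 45.8%, at 8 nt 60.6%, at 9 nt 60.0% and at 11 nt 50.6%, and the shares at 12 to 15 nt lay between 34.0% and 40.9%.

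Narrow clusters were also compared within a class, between the all-A sites and the pooled other 5-A sites. Over all distances, a mean over autosomes of 32.2% ± 7.16 of all-A clusters were 1 nt wide, against 11.9% ± 0.668 of those with any other hexamer (difference 20.3 percentage points ± 7.31, 19 of 19 autosomes, adjusted p = 2.29e-05, permutation test). Against the other 5-A hexamers alone that difference was 12.4 percentage points (adjusted p = 2.29e-05, permutation test). Mean log2 width was 2.12 ± 0.35 for all-A and 3.05 ± 0.05 for any other hexamer, lower for all-A on 19 of 19 (difference -0.93 ± 0.34, adjusted p = 2.29e-05, permutation test). Matched by class with the other 5-A hexamers, the difference in the share 1 nt wide was 12.96 percentage points ± 11.8 at 6 to 14 nt (47.6% ± 7.75 against 34.7% ± 6.23, higher on 16 of 19, adjusted p = 0.00074, permutation test), and 7.74 with the hexamer at 11 to 14 nt (adjusted p = 0.0445, permutation test). Among the single hexamers of that comparison, AAAAAC stood above all-A, with 57.9% of its clusters at 6 to 14 nt 1 nt wide against 47.7%, and the others with sites there ranged from 17.7% to 35.9%. At 15 to 30 nt it was 10.4 percentage points ± 13.7 (27.1% ± 13.3 against 16.6% ± 3.12, higher on 16 of 19, adjusted p = 0.000848, permutation test), but on the plus strand alone it was 9.17 and missed the threshold (adjusted p = 0.0622, permutation test). At 31 to 100 nt it was -2.08 percentage points ± 10.7 (14.9% ± 10.4 against 16.96% ± 2.41) and missed the threshold (adjusted p = 0.406, permutation test). These matched comparisons were among 8 chosen after the values had been seen.

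Some all-A clusters were nevertheless broad. The widest at 6 to 14 nt spanned 208 nt on chromosome 11 (plus strand), from 104304151 to 104304358, with the hexamer at 7 nt. The widest at 15 to 30 nt was 100 nt, on chromosome 19 (minus strand), from 5801867 to 5801966. The widest of all was 409 nt, on chromosome 4 (plus strand), from 141626225 to 141626633, with the hexamer at 68 nt. An AATAAA site lay 76 nt upstream of it. Clusters over 50 nt wide numbered 4 of 629, 19 of 492 and 34 of 390 in the classes of 6 to 14, 15 to 30 and 31 to 100 nt. No annotation of the build was at hand, so no gene is named for these positions.

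All-A sites near the end also stood alone. Another site on the same strand lay within 1 kb of 18.9% of the all-A sites at 6 to 14 nt (interval 16.1 to 22.2%), 57.3% of those at 15 to 30 nt (interval 52.9 to 61.6%) and 65.1% of those at 31 to 100 nt (interval 60.3 to 69.7%). The median gap to the nearest site of the strand was 10774 nt, 562 nt and 250.5 nt in those classes. Of the sites with any other hexamer, 55.9% had such a neighbour. As background, genes with alternative polyadenylation can have several sites in their last exon, but sites were not assigned to genes here.

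Over autosomes, the share with a neighbour within 1 kb was 18.7% ± 9.60 at 6 to 14 nt and 54.0% ± 15.2 at 15 to 30 nt. The difference of -35.3 percentage points ± 13.3 was negative in 19 of 19 (adjusted p = 2.29e-05, permutation test). Between the distant class and the class of 15 to 30 nt the shares were 65.0% ± 11.3 and 54.0% ± 15.2, a difference of 11.04 percentage points ± 15.9 on 13 of 19 (adjusted p = 0.00862, permutation test). That smaller difference was 4.19 percentage points without clusters 1 nt wide (adjusted p = 0.332, permutation test) and 11.9 and 7.11 percentage points on the plus and the minus strand alone, where it missed the threshold of 0.05.

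**Figure D3:**
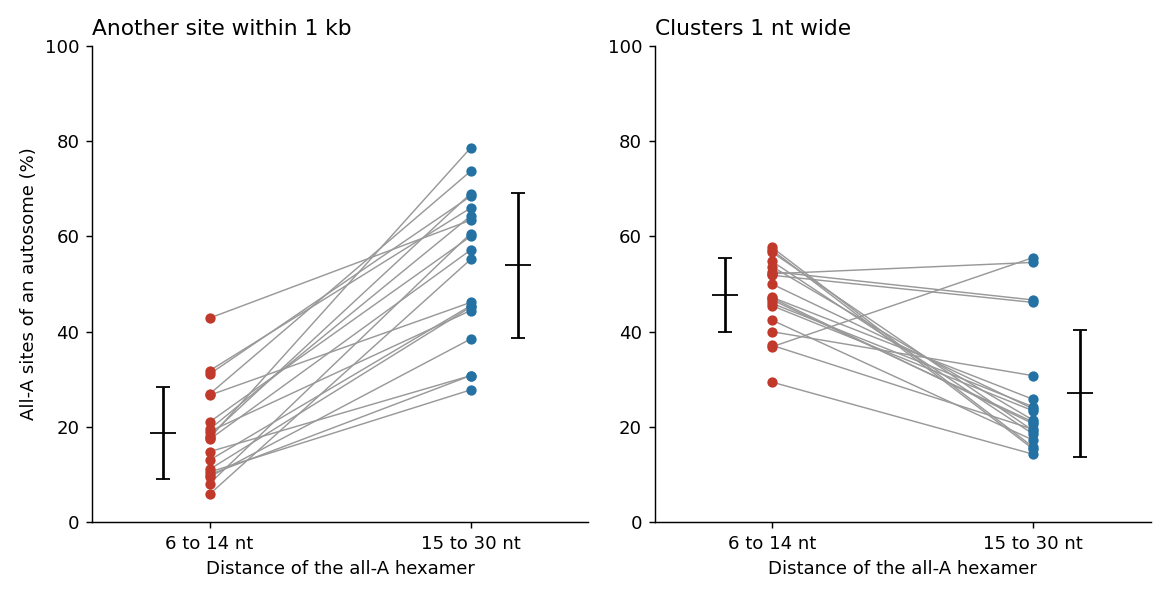
Share of an autosome's all-A sites that have another site of the strand within 1 kb (left) and that are 1 nt wide (right), in percent, with lines joining the 2 classes of an autosome and bars for the mean ± SD over 19 autosomes. The share with a neighbour is lower at 6 to 14 nt on 19 of 19 autosomes, and the share 1 nt wide is higher there on 17 of 19.

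By single distance, the share with a neighbour was low up to 15 nt and higher from 16 nt. At each distance from 6 to 15 nt that held all-A sites, between 8.70% and 26.7% of them had a neighbour within 1 kb. At 15 nt the share was 25% of 44 sites (interval 14.6 to 39.4%), and at 16 nt it was 66.7% of 36 sites (interval 50.3 to 79.8%). At 17 nt it was 43.6%, and from 18 to 30 nt it lay between 50% and 76.9%. The sites at 15 nt resembled the class below them in this measure, and the bound was not moved for it.

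The low share of neighbours near the end was in part common to other hexamers. At 6 to 14 nt, 18.7% ± 9.60 of the all-A sites had a neighbour within 1 kb, against 45.1% ± 4.79 of the sites with other 5-A hexamers and 27.0% ± 3.33 of those with AATAAA. These matched comparisons, and those of the next paragraph, also belong to the 8. The all-A difference was -26.4 percentage points ± 11.6 from the other 5-A hexamers (18 of 19 autosomes, adjusted p = 8.00e-05, permutation test) and -8.30 ± 9.83 from AATAAA (16 of 19, adjusted p = 0.00243, permutation test). The difference from AATAAA was -2.79 percentage points without clusters 1 nt wide (adjusted p = 0.406, permutation test) and -4.33 with the hexamer at 11 to 14 nt (adjusted p = 0.270, permutation test). Again by hexamer, AAAAAC at 6 to 14 nt had a neighbour at 21.8% of its sites and AAGAAA at 37.8%, while the other 5-A hexamers with sites there ranged from 49.6% to 71.4%.

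The farther classes were compared with the other 5-A hexamers in the same way. At 15 to 30 nt the shares were 54.0% ± 15.2 for all-A and 73.5% ± 3.27 for the other 5-A hexamers (difference -19.6 percentage points ± 14.2, 17 of 19 autosomes, adjusted p = 8.00e-05, permutation test). At 31 to 100 nt they were 65.0% ± 11.3 and 73.3% ± 3.16 (difference -8.30 ± 10.8, 14 of 19, adjusted p = 0.00207, permutation test). The difference at 31 to 100 nt missed the threshold on the minus strand alone (-9.21, adjusted p = 0.150, permutation test) and with neighbours counted within 100 nt (-4.33, adjusted p = 0.146, permutation test). Over all distances, 42.6% ± 9.91 of the all-A sites and 56.0% ± 1.51 of the sites with any other hexamer had a neighbour (difference -13.4 ± 9.38, 18 of 19, adjusted p = 4.80e-05, permutation test). It was -5.66 in clusters wider than 1 nt (adjusted p = 0.0535, permutation test) and -3.70 against AATAAA alone (adjusted p = 0.113, permutation test), both short of the threshold. With the other sites weighted to the distance classes of the all-A sites it was -8.49 (adjusted p = 0.00116, permutation test).

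**Figure D4:**
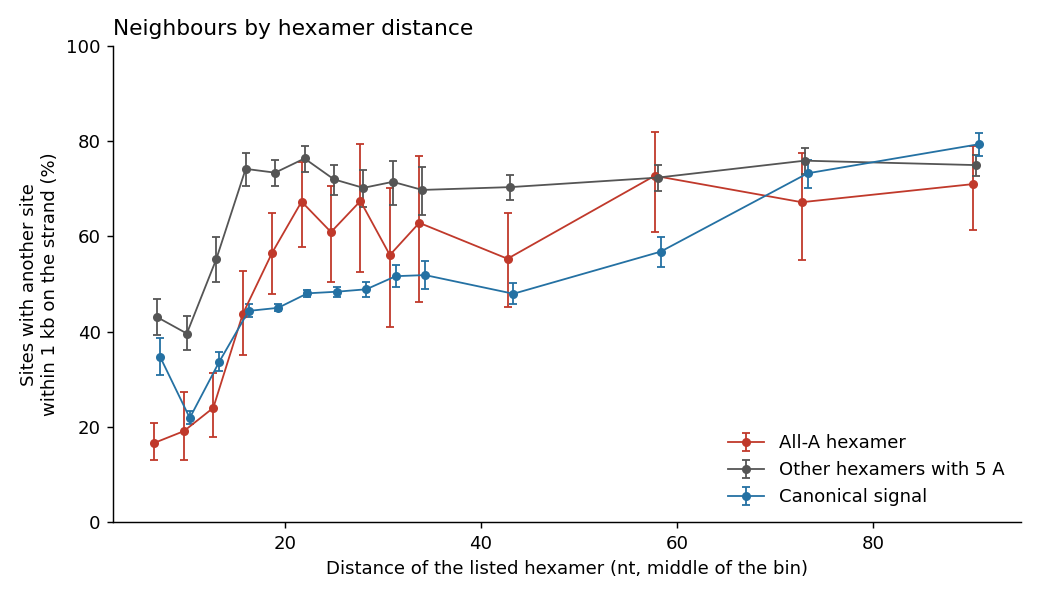
Share of sites with another site of the same strand within 1 kb, in percent, by distance of the listed hexamer in bins, with Wilson 95% intervals, for the all-A hexamer, the other hexamers with 5 A and AATAAA. The all-A share is 16.7% at 6 to 8 nt, 24.0% at 12 to 14 nt and 67.3% at 21 to 23 nt, and the other 5-A hexamers stay above it in every bin up to 50 nt.

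Distance and isolation were both tied to width. Lone sites, with no other site of the strand within 2 kb, numbered 470 of 629 at 6 to 14 nt, 169 of 492 at 15 to 30 nt and 99 of 390 at 31 to 100 nt. Among lone all-A sites, 53.6%, 42.6% and 18.2% were 1 nt wide in the classes of 6 to 14, 15 to 30 and 31 to 100 nt. Among all-A sites that had a site within 2 kb, the shares were 30.2%, 14.6% and 12.4% in the same order. The narrow clusters were thus more frequent among lone sites in each class, with overlapping intervals at 31 to 100 nt. Over autosomes, 49.7% ± 9.94 of the all-A sites and 34.2% ± 1.41 of the sites with any other hexamer were lone (difference 15.5 percentage points ± 9.50, 18 of 19, adjusted p = 4.80e-05, permutation test). The difference was 7.43 in clusters wider than 1 nt (adjusted p = 0.0118, permutation test), 6.76 against AATAAA alone (adjusted p = 0.00834, permutation test) and 9.51 with the other sites weighted to the distance classes of the all-A sites (adjusted p = 0.00032, permutation test).

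**Figure D5:**
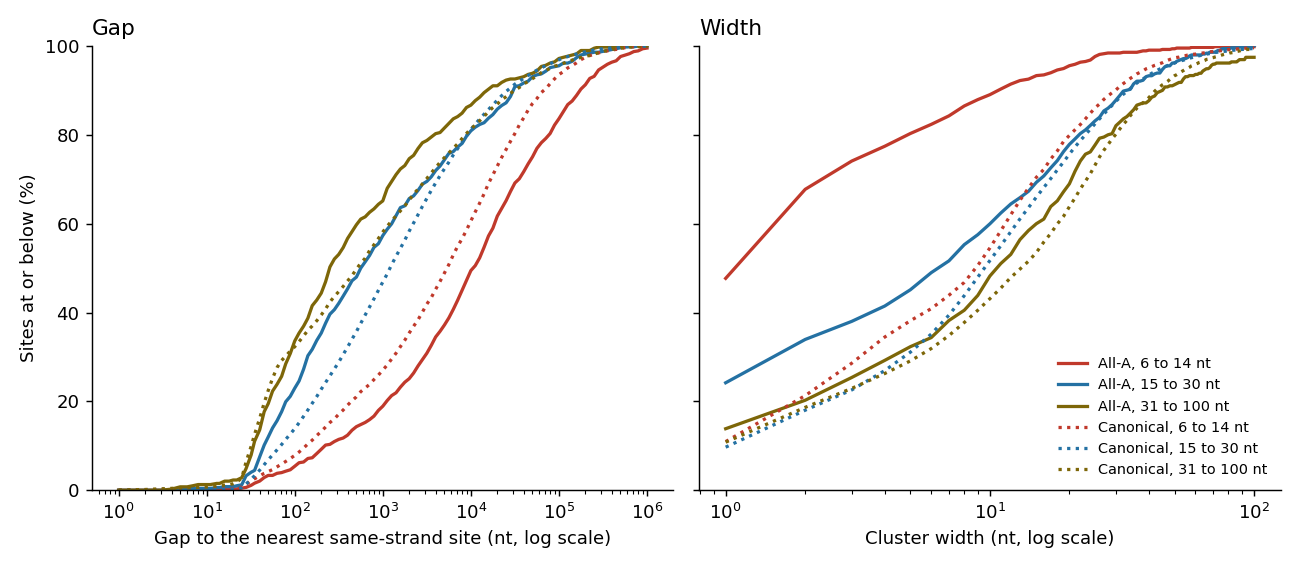
Cumulative share of sites, in percent, by gap to the nearest site of the strand (left, nt, log scale) and by cluster width (right, nt, log scale), for the all-A hexamer (solid) and AATAAA (dotted) in the 3 distance classes. All-A sites at 6 to 14 nt have the longest gaps (median 10774 nt) and the narrowest clusters (47.7% of them 1 nt wide) of the 6 lines.

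Extreme gaps were found in every class. At 15 to 30 nt the longest was 755687 nt, from a cluster 1 nt wide on the minus strand of chromosome 4 at 110792324, whose nearest site was listed with AATAAA. At 31 to 100 nt it was 407358 nt, from a cluster 1 nt wide on the plus strand of chromosome 15 at 61070313. At 6 to 14 nt it was 1893663 nt, from a cluster on the minus strand of the unplaced Y sequence, from 30930938 to 30930939. That sequence is unplaced, so a gap along it need not be a distance in the genome.

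Within runs of sites, joined by gaps of at most 2 kb, the all-A hexamer was less frequent at the downstream end, where the last site of a gene tends to lie. It was listed for 0.603% of the most downstream sites (154 of 25530), 0.944% of the most upstream sites (241 of 25530), 0.810% of the sites between them and 1.56% of lone sites. Over autosomes, the downstream and upstream shares were 0.611% ± 0.195 and 0.902% ± 0.353, a difference of -0.29 percentage points ± 0.42. The sign was negative in 12 of 19 (adjusted p = 0.00816, permutation test), and on the minus strand alone the difference was -0.20 (adjusted p = 0.170, permutation test). Counted within each set, 15.95% of the all-A sites were most upstream of a run and 10.2% most downstream. The other 5-A hexamers had 20.4% and 11.6%, and sites with no hexamer 24.8% and 11.3%. The direction was thus not particular to the all-A hexamer. AATAAA went the other way, with 14.2% and 21.1%, and so did ATTAAA, with 17.5% and 19.1%. Since runs rest on spacing, they can cross from gene to gene.

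A site with AATAAA or ATTAAA within 2 kb downstream on the strand was found for 13.4% of the all-A sites at 6 to 14 nt, 42.3% of those at 15 to 30 nt and 44.1% of those at 31 to 100 nt. Over autosomes the first of these classes had 12.9% ± 7.94 and the class of 15 to 30 nt 38.9% ± 12.2 (difference -26.0 percentage points ± 13.01, 19 of 19, adjusted p = 8.00e-05, permutation test). All-A sites as a whole had such a site less often than the other 5-A hexamers, with 29.9% ± 7.39 against 48.8% ± 2.76 (difference -18.9 percentage points ± 7.34, 19 of 19, adjusted p = 2.29e-05, permutation test). Pooled over all sites, the share was 30.71% for all-A, close to the 29.12% of AATAAA and below the 40.35% of ATTAAA. A lower share at 6 to 14 nt than at 15 to 30 nt was not particular to the all-A hexamer either. The pooled shares in those classes were 16.96% and 29.77% for AATAAA, and 31.7% and 52.8% for the other 5-A hexamers. The measure counts neighbours on the downstream side, so it moves with the share of lone sites.

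The nearest neighbours within 100 nt carried a mix of hexamers. On the upstream side 147 all-A sites had a neighbour that close, and its hexamer was all-A in 26 cases, AATAAA in 18, ATTAAA in 10 and another 5-A hexamer in 21, while 39 had no listed hexamer. On the downstream side 181 had such a neighbour, with all-A in 26 cases, AATAAA in 36, ATTAAA in 23 and another 5-A hexamer in 25, while 33 had no hexamer. The upstream site stood nearer to the cluster than the listed hexamer in 1 of 629, 2 of 492 and 50 of 390 all-A sites of the classes at 6 to 14, 15 to 30 and 31 to 100 nt.

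Neighbouring all-A sites could share an A run. Of the 26 pairs within 100 nt on a strand, 22 had listed distances that can point at the same bases, within the width of the clusters. Wide clusters meet that condition more easily, and the bases themselves were not read. On chromosome 10 (plus strand), a cluster from 111423087 to 111423088 had the hexamer at 18 nt, and the next, from 111423095 to 111423097, had it at 26 nt, across a gap of 6 nt. On chromosome 11 (plus strand), clusters from 43399806 to 43399824 and from 43399862 to 43399897 had it at 14 and 62 nt. Whether members share an A run was not tested beyond this count. Consecutive all-A sites on a strand formed 29 pairs and no longer chain.

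A site on the opposite strand within 100 nt was found for 1.91% of the all-A sites at 6 to 14 nt, 4.07% of those at 15 to 30 nt and 4.10% of those at 31 to 100 nt, with overlapping intervals. Over autosomes the share was 3.14% ± 2.00 for all-A and 3.98% ± 1.10 for any other hexamer. The difference of -0.83 percentage points ± 1.93 missed the threshold (13 of 19 autosomes, adjusted p = 0.0762, permutation test).

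Along the genome, all-A sites made up 1.02% ± 0.101 of the sites of an autosome, from 0.808% on chromosome 14 to 1.19% on chromosome 4. An autosome held between 42 and 119 of them. The share of all-A sites with the hexamer at 6 to 14 nt ranged from 23.9% on chromosome 6 (interval 15.5 to 35.0%) to 53.5% on chromosome 1 (interval 43.0 to 63.65%). It was counted over the few all-A sites of an autosome, so its range includes a larger counting error.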

How the data were processed

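The deposited table lists, for the whole series, genomic start, end and strand of each 3′ end cluster, a hexamer and its distance in nt. Per the labels' protocols, poly(A)-selected RNA was cut with RNase T1, reverse transcribed, circularised, amplified and sequenced from the tail. Per the submitters' processing notes, bedtools, STAR and Trimmomatic were used on the mm9 build. Their versions are not given. How clusters were joined, how hexamers were searched, and whether priming in A runs was filtered are not given in the sources used here. The table holds 0 columns of single libraries, so no library value, depth or replicate was used. Starts were taken as counted from 0, since the smallest end minus start is 1 nt, and are printed from 1.

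Members, classes, lists and comparisons were chosen with earlier results of these data known. Mitochondrial sites (80, of which 1 was all-A) were left out. Neighbours were taken from the whole remaining catalogue, with gaps between cluster edges. Shares have Wilson 95% intervals. Comparisons used per-autosome differences in a 2-sided sign-flip permutation test (100000 resamples, seed 1, smallest p 1e-05), adjusted by Benjamini-Hochberg over 16 comparisons and over 8 added after the values were seen, with a threshold of 0.05. Scripts were tested on simulated data. Named sites were the 3 widest of each class, the 3 longest chains and the longest gap of each class, with examples of these printed. Alternatives were single strands, class bounds, gap sizes, width limits, chromosome X and other comparison sets. The tools were matplotlib 3.10.9, scipy 1.17.1, pandas 2.3.3 and numpy 2.4.6 under Python 3.11.15.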

Additional observations from a re-analysis of the deposited data

How the results depend on the processing

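Of 199 alternatives over 24 comparisons, 184 kept the direction and the side of the threshold, 14 kept the direction and lost the threshold, 1 gained it and 0 turned round. Differences are in percentage points, with p adjusted over its family. The share at 15 to 30 nt, all-A minus other 5-A hexamers, was -3.82 on the plus strand (permutation p = 0.0871), -2.80 in clusters wider than 1 nt (permutation p = 0.114) and -0.82 at 15 to 25 nt (permutation p = 0.512). The share with a neighbour within 1 kb, all-A minus all other hexamers, was -5.66 in clusters wider than 1 nt (permutation p = 0.0535) and -3.70 against AATAAA (permutation p = 0.113). The downstream minus upstream difference in runs was -0.20 on the minus strand (permutation p = 0.170). The opposite-strand difference was -0.89 with chromosome X added (permutation p = 0.0489). For neighbours at 31 to 100 minus 15 to 30 nt, the values were 11.9 on the plus strand (permutation p = 0.0562), 7.11 on the minus strand (permutation p = 0.340) and 4.19 in clusters wider than 1 nt (permutation p = 0.332). Among the comparisons chosen after the values were seen, neighbours of all-A minus AATAAA at 6 to 14 nt differed by -2.79 in clusters wider than 1 nt (permutation p = 0.406) and by -4.33 at 11 to 14 nt (permutation p = 0.270). Neighbours of all-A minus other 5-A hexamers at 31 to 100 nt differed by -9.21 on the minus strand (permutation p = 0.150) and by -4.33 with neighbours within 100 nt (permutation p = 0.146). The share 1 nt wide, all-A minus other 5-A hexamers at 15 to 30 nt, was 9.17 on the plus strand (permutation p = 0.0622). Other values that moved by over 1.5 times kept their side of the threshold, and examples follow. With the hexamer at 6 to 10 nt, the share in the near class differed by 14.95 from other 5-A hexamers, and neighbours by -15.25 from AATAAA. With 11 to 14 nt in place of 6 to 14 nt, the share 1 nt wide exceeded that at 15 to 30 nt by 12.6. Canonical sites within 0.5 kb downstream differed by -8.48 from other 5-A hexamers. Why these values moved was not tested, and strand and width subsets hold fewer sites. No paired analysis was possible because the columns carry no library and no replicate. No leave-one-out over libraries could be made for the same reason, and depth behind a site is unknown.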

Other observations

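Chromosome X held 53 all-A sites, 1.25% of its sites (Wilson 95% interval 0.959 to 1.64%), and 62.3% of them had the hexamer at 6 to 14 nt (interval 48.8 to 74.1%). On the 19 autosomes that share averaged 41.2% ± 6.86 (SD) and reached 53.5% at most. The other 5-A hexamers also had a higher share at 6 to 14 nt on X, with 24.6%, against 12.7 to 20.3% on autosomes, while AATAAA had 10.1% on X and 8.62 to 10.9% on autosomes. X is a single chromosome, and its difference from the autosomes was not tested. The unplaced Y sequence held 7 all-A sites among 55 sites, and chromosome Y held 1 among 20. All 8 had the hexamer at 6 to 14 nt. Near-identical copies on the Y, between which reads can be split, make single positions there uncertain.

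Site identifiers in the deposited table run with gaps. Among the 20 nearest identifiers, 27.2% were present for all-A sites at 6 to 14 nt, 32.7% for those at 15 to 30 nt and 32.4% for those at 31 to 100 nt, against 29.3% over all identifiers with a hexamer. AATAAA sites had 27.9%, 31.3% and 32.0% in the same classes. What the absent identifiers stood for, and what decided which were kept, is not given in the sources used here.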
